A study of Rattus norvegicus with 4 samples.

Results

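Metabolic nuclear receptors are transcription factors that bind small lipophilic molecules such as bile acids, oxysterols, fatty acids, thyroid hormone, glucocorticoids and vitamin D, and that change the transcription of their target genes when bound. The 10 receptors described here are the bile acid receptor FXR (Nr1h4), the oxysterol receptors LXR-alpha (Nr1h3) and LXR-beta (Nr1h2), the fatty acid receptors PPAR-alpha (Ppara) and PPAR-delta (Ppard), the retinoid X receptors Rxra and Rxrb, the thyroid hormone receptor Thra, the glucocorticoid receptor Nr3c1 and the vitamin D receptor Vdr. They were chosen by name, with earlier results of these data known, and are 10 of the 23360 genes in the data. The RNA came from INS-1 832/3 cells, a clonal rat insulinoma line that secretes insulin, carries a human insulin gene and is kept under Geneticin selection. There were 4 samples, 2 from standard monolayer culture (2D) and 2 from cells bioprinted into the hydrogel GelXA LAMININK 411 (3D), a gelatin methacrylate blend with laminin-411. All 4 were biological replicates of passage 3 harvested on day 5 in the same serum-containing medium, and the labels separate the groups by culture method and hydrogel. Per the study's methods, printing also meant extrusion under pressure through a nozzle and crosslinking with ultraviolet light. Effects of these steps cannot be told apart from those of growth in the gel. The line is 1 tumour clone and not an islet, and it was the only cell type seeded.

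In the nucleus most of these receptors act as pairs with an RXR. FXR, the LXRs, the PPARs, the thyroid hormone receptor and the vitamin D receptor all share RXR as their partner on DNA, whereas the glucocorticoid receptor pairs with itself and waits in the cytoplasm on HSP90 chaperones until its hormone arrives. In beta cells, glucocorticoid signalling is known for restraining insulin secretion, and LXR and PPAR signalling for setting lipid handling.

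The values were TPM (transcripts per 1000000), a transcript's abundance divided by its length and scaled so that each sample sums to 1000000. They therefore allow levels of different genes to be compared. Genes with a mean of at least 1 TPM were compared between cultures with limma on log2(TPM + 1) after scaling between samples, and a gene is called higher or lower where its Benjamini-Hochberg adjusted p over the 11960 genes tested was below 0.05. Fold changes on this scale understate those of genes near 1 TPM. Since TPM carries no read depth, counting errors are not given. With 2 cultures against 2, an exact permutation test on a single value cannot go below a two-sided p of 0.33. In bulk RNA, fewer cells of a type and less RNA per cell cannot be told apart.

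The libraries showed a beta-cell line. All 8 beta-cell markers found in the data were tested, and Ins1 alone lay between 114003 and 137822 TPM, whereas the summed markers of fibroblasts were at most 0.0248 TPM, of leukocytes 0.516 to 1.46 TPM, of endothelial cells 1.08 to 1.68 TPM and of acinar and ductal cells 0.378 to 0.864 TPM. Of the 8 beta-cell markers, Slc2a2 was called higher in 3D (log2 fold change 0.39, limma adjusted p = 0.0075). Ins2 was called lower (log2 fold change -0.58, limma adjusted p = 0.0095), and 6 were not called. Of all genes tested, 18.5% were called higher and 19.5% lower. Cdh5, Ptprc, Dcn, Lum, Cpa1 and Prss1 were listed at 0 in every sample. The markers Pecam1, Col1a2 and Amy2a3 were not matched and are missing from these sums. The alpha-cell hormone Gcg stood at 41.9 and 73.8 TPM in 2D and at 124 and 155 TPM in 3D (log2 fold change 1.26, limma adjusted p = 0.0217), a call that was lost with either 3D culture left out (at most 0.117), with no filter (0.06515) and with robust empirical Bayes (0.128). The log2 fold change of Gcg was 0.82 without 2D replicate 1, and its part in the receptor differences was not tested. Gcg is named here after its values were seen. The other islet hormones listed were too low to be tested. Ppy went the other way, at 0.137 and 0.299 TPM in 2D and at 0 in both 3D cultures. Sst was at 0.0860 and 0.0938 TPM in 2D and at 0.235 and 0.202 TPM in 3D, and Ghrl was at 0 throughout. No pair of samples held an identical value above 0 on any transcript.

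Of the 10 receptors, 8 were abundant enough to be tested. Nr1h4, Nr3c1 and Rxrb were higher in 3D, Vdr was lower, and Ppard, Rxra, Nr1h2 and Thra were not called. Nr1h4 passed the filter only through its 3D values, so its call was partly built in. Over all genes tested the share called was 38.0%, with 18.5% called higher and 19.5% lower, so 4 calls of 8 among the receptors are to be read against a background in which calls were common. Without Nr1h4 there were 2 calls higher and 1 lower among 7. The median log2 fold change was 0.23 over the 8 and 0.22 over the 7, beside -0.0031 over all genes tested. In 7 of the 8 the cultures' TPM did not overlap, which was also so for 74.2% of all genes tested. Each of the 4 receptor calls was lost when either 3D culture was left out. The number of calls over all genes then fell too, from 4541 to 136 without 3D replicate 1 and to 1037 without 3D replicate 2.

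**Figure D1:**
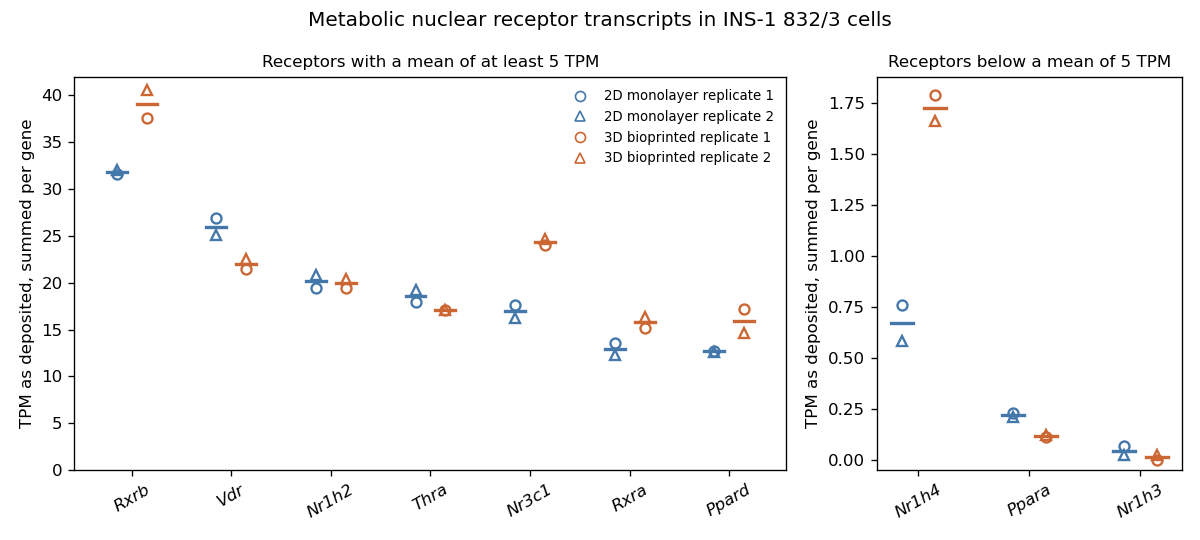
TPM of each receptor in each culture (circles replicate 1, triangles replicate 2, bars the mean of 2), with receptors of a mean of at least 5 TPM on the left and the others on a smaller scale on the right. Rxrb leads in both cultures, Nr3c1 and Rxrb in 3D lie above 2D, Vdr lies below, and Nr1h3 and Ppara stay under 0.25 TPM.

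**Figure D2:**
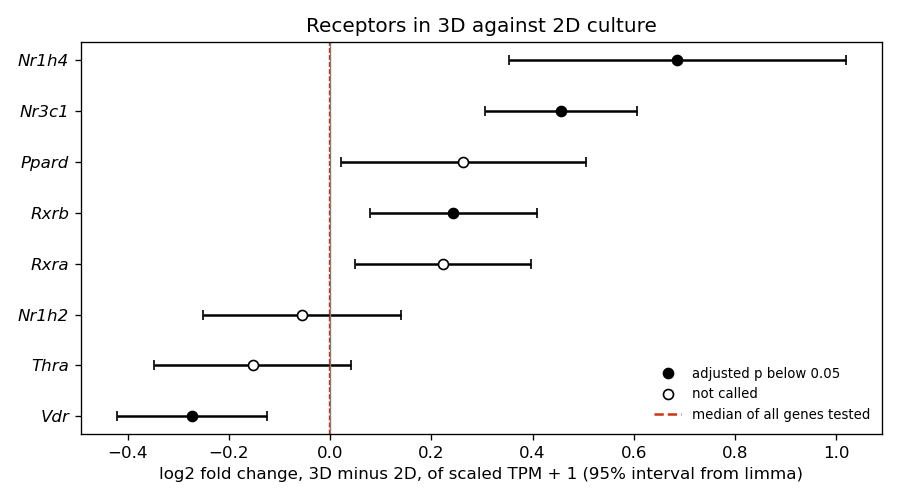
Log2 fold change, 3D minus 2D, of the 8 receptors tested, with its 95% interval from limma and filled points for an adjusted p below 0.05. The estimates run from -0.27 for Vdr to 0.69 for Nr1h4, and the dashed line at the median of all genes tested lies on 0.

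Promoter windows of these genes differed in composition, and 4 are printed, namely the LXR pair, because its members differ widely in level, and Rxrb and Vdr, because they were called in opposite directions. They are the 250 bases before the RefSeq transcription start in the rat assembly GRCr8, written 5′ to 3′ along the gene's own strand. RefSeq windows matched 8 of the 10 receptors, and those of Nr1h4 and Ppard are not shown. Capitals mark 2 motifs searched on both strands, the GC box GGGCGG, bound by Sp1-type factors, and the ETS-factor core CCGGAAG. The GC box occurs in 30.5% and the ETS core in 7.27% of all 33469 windows of this length. The hexamer AGGTCA, the core of most nuclear receptor binding sites, was searched too. It is in 14.1% of windows and in none of the receptors' windows, which says only that these letters are missing there. The windows lie on the minus strand at chr1:104183864-104184113 for Nr1h2, chr3:97623230-97623479 for Nr1h3, chr20:4824660-4824909 for Rxrb and chr7:130916758-130917007 for Vdr.
Nr1h2 promoter: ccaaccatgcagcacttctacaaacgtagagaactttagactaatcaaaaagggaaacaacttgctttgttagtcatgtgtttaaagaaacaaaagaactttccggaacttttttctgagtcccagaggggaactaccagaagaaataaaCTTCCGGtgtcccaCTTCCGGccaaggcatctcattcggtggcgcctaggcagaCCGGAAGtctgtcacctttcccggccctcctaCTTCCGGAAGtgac
Nr1h3 promoter: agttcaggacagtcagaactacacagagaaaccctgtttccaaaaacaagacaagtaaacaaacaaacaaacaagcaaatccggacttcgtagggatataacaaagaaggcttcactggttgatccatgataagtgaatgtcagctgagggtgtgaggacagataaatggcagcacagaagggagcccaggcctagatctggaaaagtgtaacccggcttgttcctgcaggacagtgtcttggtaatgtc
Rxrb promoter: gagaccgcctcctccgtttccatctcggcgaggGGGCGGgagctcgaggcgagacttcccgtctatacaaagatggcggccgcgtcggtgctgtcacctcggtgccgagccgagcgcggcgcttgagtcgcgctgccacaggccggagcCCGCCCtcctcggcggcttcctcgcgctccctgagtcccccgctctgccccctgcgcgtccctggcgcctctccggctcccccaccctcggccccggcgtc
Vdr promoter: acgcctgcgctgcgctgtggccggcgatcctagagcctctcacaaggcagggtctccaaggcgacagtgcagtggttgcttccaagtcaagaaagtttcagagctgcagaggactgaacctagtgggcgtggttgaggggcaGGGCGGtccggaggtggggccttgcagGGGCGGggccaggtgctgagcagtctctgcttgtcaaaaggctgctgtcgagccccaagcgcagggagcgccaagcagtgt

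The window of Nr1h2 holds 5 ETS cores, 2 on the printed strand and 3 on the other, of which the last pair overlap in a palindrome. That of Nr1h3 holds neither motif. The Rxrb window has 34 CpG dinucleotides and 74.0% G and C, against a median of 5 CpG over all windows, and 2 GC boxes on opposite strands. The Vdr window is intermediate, with 13 CpG, 63.6% G and C and 2 GC boxes on the printed strand. These are matches to letters, with no measurement of binding.

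Rxrb, which encodes RXR-beta, was the most abundant of the 10 receptors and rose in 3D. Its TPM were 31.6 and 32.1 in the 2D cultures and 37.6 and 40.5 in the 3D cultures. The groups did not overlap. The mean went from 31.8 ± 0.340 to 39.0 ± 2.09 TPM (SD, n = 2 each), a log2 fold change of 0.24 (standard error, SE, 0.066, limma adjusted p = 0.0367). The adjusted p was 0.0865 without 2D replicate 1, 0.132 without 3D replicate 1 and 0.199 without 3D replicate 2, and it was 0.0779 with no filter on low genes and 0.0581 without the intensity trend.

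Rxrb is also the member with most listed transcripts, 8, and they did not move together. The leading transcript, ENSRNOT00000041613.5, stood at 18.5 and 18.8 TPM in 2D and at 17.3 and 16.4 TPM in 3D. It was thus slightly lower in both 3D cultures, while the gene as a whole was higher. The other 7 transcripts summed to 13.1 and 13.2 TPM in 2D and to 20.2 and 24.1 TPM in 3D. The share of the leading transcript in the gene was 58.6 ± 0.172% (SD, n = 2) in 2D and 43.3 ± 3.90% (SD, n = 2) in 3D. Among the other 7 transcripts, 4 were higher in both 3D cultures than in either 2D culture, 1 was lower and 2 overlapped. The largest of the 4, ENSRNOT00000087895.1, had 3.90 and 4.38 TPM in 2D and 9.29 and 6.12 TPM in 3D. With the leading transcript alone, the log2 fold change of Rxrb turned to -0.17 (limma adjusted p = 0.1205), so the call on the gene rests on the minor transcripts. Reads of 75 bases divide such overlapping transcripts by estimation, and the error of that division is not part of TPM.

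**Figure D3:**
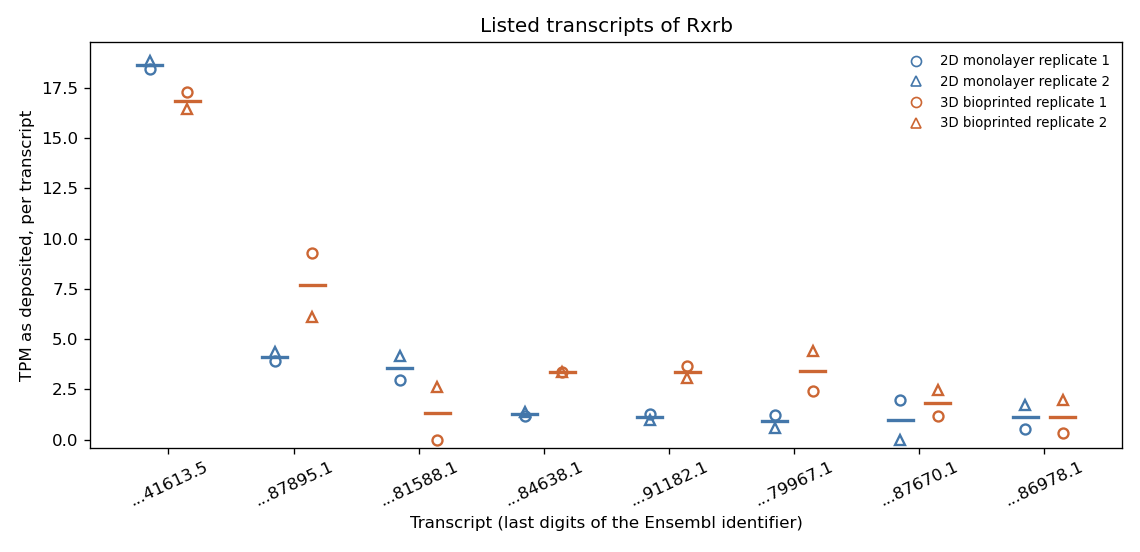
TPM of the 8 listed Rxrb transcripts in each culture (circles replicate 1, triangles replicate 2, bars the mean of 2), ordered by mean. The leading transcript is lower in both 3D cultures (17.3 and 16.4 TPM against 18.5 and 18.8), and 4 of the others are higher in both.

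Rxra, RXR-alpha, is listed with a single transcript. It stood at 13.6 and 12.3 TPM in 2D and at 15.2 and 16.3 TPM in 3D. Both 3D cultures were above both 2D cultures, and the log2 fold change was 0.22 (95% interval 0.05 to 0.40), but the adjusted p of 0.0533 in limma missed the threshold. With only genes of at least 5 TPM tested it passed, at 0.0367. The remaining isotype, Rxrg, was at 0.0547 and 0.0911 TPM in 2D and at 0.324 and 0.250 TPM in 3D and was too low to be tested.

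The balance of Rxra to Rxrb can be read within each sample, without scaling. Its log2 ratio was -1.22 and -1.38 in 2D and -1.31 and -1.31 in 3D. The difference of -0.012 (exact permutation test, two-sided p = 1) was far below the spread of the 2D cultures. With the leading transcript of each gene in place of the sums, the difference became 0.43 (exact permutation p = 0.33).

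All RXR transcripts together summed to 45.2 and 44.5 TPM in 2D and to 53.0 and 57.1 TPM in 3D. The 7 receptors of this group that pair with RXR summed to 78.1 and 78.6 TPM in 2D and to 77.2 and 76.5 TPM in 3D. RXR transcripts per partner transcript were accordingly 0.579 and 0.566 in 2D and 0.687 and 0.746 in 3D, with no overlap between cultures. Partner transcripts outnumbered RXR transcripts in all 4 samples. These sums concern RNA and were not tested. Within the RXR sum, the 7 minor Rxrb transcripts went from 13.1 and 13.2 TPM in 2D to 20.2 and 24.1 TPM in 3D. The leading Rxrb transcript went from 18.5 and 18.8 TPM to 17.3 and 16.4 TPM. The RXR sum thus shares the uncertainty of that division of reads. RXR partners outside this group, such as Rara and Thrb, are not in the partner sum.

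Nr1h2, LXR-beta, was the abundant oxysterol receptor and did not differ between cultures beyond the spread. It stood at 19.4 and 20.8 TPM in 2D and at 19.4 and 20.4 TPM in 3D. The ranges overlapped, and the log2 fold change was -0.055 (95% interval -0.25 to 0.14, limma adjusted p = 0.595). Nr1h3, LXR-alpha, known from liver, fat and macrophages, was listed near 0, at 0.0677 and 0.0246 TPM in 2D and at 0 and 0.0266 TPM in 3D. It made up at most 0.347% of the summed LXR transcripts of any sample. Of the sequences printed above, the Nr1h3 window is the one with neither motif and with 3 CpG. The window of Ppara, which is not printed, has 27 CpG, 76.0% G and C and 2 GC boxes. Ppara was low as well, at 0.114 to 0.230 TPM. A link between window and level was not tested.

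Nr1h4, FXR, had the largest log2 fold change of the receptors but at a low level. Its TPM were 0.763 and 0.582 in 2D and 1.79 and 1.66 in 3D. The groups were well apart, at 0.672 ± 0.128 TPM (SD, n = 2) and 1.73 ± 0.0886 TPM (SD, n = 2). The log2 fold change was 0.69 (SE 0.13, limma adjusted p = 0.0149), and it was 0.90 with a pseudocount of 0.5 and 1.21 with 0.1 TPM. The gene passed the filter of 1 TPM only through its 3D values, so a difference was built into its being tested. All of its signal came from 1 of 2 listed transcripts, ENSRNOT00000009910.4. The adjusted p was 0.0501 without 2D replicate 2, 0.0854 without 3D replicate 1 and 0.0633 without 3D replicate 2.

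Ppard, PPAR-delta, was the fatty acid receptor of these cells. It stood at 12.7 TPM in both 2D cultures and at 17.2 and 14.7 TPM in 3D. Both 3D values were higher but differed from each other, and the log2 fold change of 0.26 (95% interval 0.02 to 0.50) had an adjusted p of 0.0802 in limma. It was 0.14 without 3D replicate 1 and 0.38 without 3D replicate 2. Its minor transcript, ENSRNOT00000083109.1, was at 0.794 and 0.763 TPM in 2D and at 1.496 and 1.399 TPM in 3D, which took its share of the gene from 6.14 ± 0.149% (SD, n = 2) to 9.11 ± 0.601% (SD, n = 2). Ppara, PPAR-alpha, the main receptor of fatty acid oxidation in liver, was at 0.230 and 0.212 TPM in 2D and at 0.114 and 0.125 TPM in 3D and was not tested. It made up 1.77% and 1.65% of the Ppara and Ppard sum in 2D and 0.659% and 0.842% in 3D. The log2 ratio of Ppara to Ppard differed by -1.21 between cultures (exact permutation test, two-sided p = 0.33, the smallest possible), and by -0.87 with a pseudocount of 0.1 TPM. In 3D replicate 1 the signal of Ppara came from another transcript than in the other 3 samples. Pparg, the adipocyte PPAR, was at 0.213 and 0.136 TPM in 2D and at 0.170 and 0.0475 TPM in 3D.

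Thra, thyroid hormone receptor alpha, stood at 17.9 and 19.2 TPM in 2D and at 17.1 TPM in both 3D cultures. Both 3D values lay just below the 2D values. The log2 fold change was -0.15 (95% interval -0.35 to 0.04, limma adjusted p = 0.169), and it was -0.24 without 2D replicate 1 and -0.073 without 2D replicate 2. The 2 listed transcripts kept their proportions, with the leading one, ENSRNOT00000012340.3, at 62.7 ± 0.590% of the gene (SD, n = 2) in 2D and 63.8 ± 0.228% (SD, n = 2) in 3D. The end of Thra overlaps the clock gene Nr1d1 on the opposite strand, and Nr1d1, named here after its values were seen, was at 4.97 and 5.84 TPM in 2D and at 8.19 and 10.1 TPM in 3D (log2 fold change 0.62, limma adjusted p = 0.0186). The call on Nr1d1 was lost without 2D replicate 1 (adjusted p = 0.0555) and with either 3D culture left out (at most 0.107). The libraries kept strand, but whether the quantification used it is not given in the sources used here. The sister receptor Thrb was lower, at 7.56 and 5.27 TPM in 2D and at 6.31 and 6.51 TPM in 3D, with a log2 fold change of -0.020 (limma adjusted p = 0.918) that turned positive without scaling, at 0.017.

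Nr3c1, the glucocorticoid receptor, had the smallest adjusted p of the receptors. It stood at 17.6 and 16.3 TPM in 2D and at 24.0 and 24.6 TPM in 3D. The groups did not overlap, and the gap between them was wider than the difference between replicates. The mean rose from 16.9 ± 0.942 to 24.3 ± 0.398 TPM (SD, n = 2 each), a log2 fold change of 0.46 (SE 0.060, 95% interval 0.31 to 0.61, limma adjusted p = 0.0063). It was the only receptor still called at an adjusted p below 0.01. Its adjusted p was 0.0737 without 3D replicate 1 and 0.0574 without 3D replicate 2, with log2 fold changes of 0.46 and 0.45. The mineralocorticoid receptor Nr3c2, which binds glucocorticoids as well and is named here after its values were seen, was at 0.381 and 0.301 TPM in 2D and at 1.31 and 1.33 TPM in 3D and was not tested.

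Vdr, the vitamin D receptor, was the only member called lower. It stood at 26.92 and 25.04 TPM in 2D and at 21.5 and 22.5 TPM in 3D. All 3D values were below all 2D values, and the mean went from 26.0 ± 1.33 to 22.0 ± 0.706 TPM (SD, n = 2 each). The log2 fold change was -0.27 (SE 0.059, limma adjusted p = 0.0199). Without scaling between samples it was -0.23 and no longer called (adjusted p = 0.0546). The adjusted p was 0.151 without 3D replicate 1 and 0.106 without 3D replicate 2.

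Within a list of 49 nuclear receptors, these 10 and 39 others, the 10 made up 37.1% and 37.6% of the summed TPM in 2D. In 3D they made up 35.8% and 36.6%, slightly less in both cultures than in either 2D culture. The share was not tested. Ranked by mean TPM, Rxrb was at 3 in both cultures, behind the orphan receptors Esrra and Nr2f6. In 2D the next places were held by Vdr, Nr1h2 and Thra, ranked 4, 5 and 6, with Nr3c1 at 8. In 3D Nr3c1 had moved to 5, and Vdr, Nr1h2 and Thra to 7, 9 and 12. Rxra went from 12 to 14, Ppard stayed at 13, and Nr1h4 went from 29 to 25. Some neighbours in this order did not differ beyond their spread. In 2D the values of Rxra (13.6 and 12.3 TPM) enclosed those of Ppard. In 3D the range of Ppard (17.2 and 14.7 TPM) enclosed both Rxra and Thra. Nr1h2, Thra and Nr3c1 did not overlap in 2D, but the gaps between them were smaller than the differences within a pair of replicates.

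Of the other 39 nuclear receptors, 19 were tested, and 9 were called higher, 1 lower and 9 not called, where 18.5% and 19.5% of all genes were called higher and lower. Their median log2 fold change was 0.20. Nr4a1, an immediate early orphan receptor, rose from 8.54 ± 0.553 to 15.5 ± 1.28 TPM (SD, n = 2 each), a log2 fold change of 0.75 (limma adjusted p = 0.0051). The clock repressor Nr1d2 rose from 17.7 ± 1.53 to 24.1 ± 0.0722 TPM (log2 fold change 0.38). The only call lower was Esrra, from 50.0 ± 0.388 to 43.2 ± 2.07 TPM (log2 fold change -0.25, limma adjusted p = 0.0294), a receptor that drives mitochondrial genes. The retinoic acid receptor Rara had 12.6 ± 0.0861 TPM in 2D and 10.9 ± 0.894 TPM in 3D (limma adjusted p = 0.0602). The list had no call without 3D replicate 1 and 3 higher without 3D replicate 2, Nr4a1 among them. The call on Esrra was also lost without 2D replicate 2 (adjusted p = 0.0756), and without 2D replicate 1 the list had 2 calls lower.

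Coregulators carry the receptors' effect to chromatin. All 21 listed were tested, of which 9 were called higher, 3 lower and 9 not called, beside the same 18.5% and 19.5% of all genes. Their median log2 fold change was 0.26. Ppargc1a, PGC-1alpha, a coactivator of PPARs and Esrra, rose from 0.866 ± 0.216 to 3.24 ± 0.424 TPM (SD, n = 2 each), a log2 fold change of 1.16 (limma adjusted p = 0.0057). Its 2D mean lay under the filter, which it passed through its 3D values, and the log2 fold change was 1.76 with a pseudocount of 0.1 TPM. The acetyltransferase Ep300 rose from 4.37 ± 1.08 to 9.04 ± 0.992 TPM (log2 fold change 0.88), and the arginine methyltransferase Prmt1 fell from 126 ± 6.41 to 104 ± 2.70 TPM (log2 fold change -0.32). The corepressor Ncor1, which holds unliganded thyroid hormone receptors and other RXR partners silent, had a log2 fold change of 0.12 (limma adjusted p = 0.272). Without 3D replicate 1 the list had no call, and without 3D replicate 2 it had 1. Without 2D replicate 2 it had 5 calls higher, and without 2D replicate 1 it had 1 call lower. Over the 10 pathway lists together, 111 genes were tested, 35 were called higher and 30 lower, against 38.0% of all genes in either direction, and without 3D replicate 1 these counts were 2 and 0.

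The target genes of each receptor were taken from lists by function, mostly described in liver, gut, kidney or fat, and their counts below stand beside 18.5% of all genes called higher and 19.5% lower. All gene lists of this report were drawn up with earlier results of these data known, so their counts are not independent of the data. Of the 7 FXR targets, 4 were listed at 0 in every sample and 2 were tested, with no call in limma. The repressor Nr0b2 (SHP), the classical FXR target, was at 6.53 and 6.73 TPM in 2D and at 5.96 and 7.34 TPM in 3D, with overlapping values. The phospholipid exporter Abcb4 was at 18.9 and 15.5 TPM in 2D and at 19.8 and 19.8 TPM in 3D (log2 fold change 0.16, limma adjusted p = 0.190) and passed the threshold only without 2D replicate 1 (0.0451).

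Of the 14 LXR targets, 12 were found and 8 tested, with 3 called higher, 1 lower and a median log2 fold change of -0.016. The call lower was Smpdl3a, named here after its values were seen. Its TPM were 1.51 in both 2D cultures and 0.837 and 0.936 in 3D (limma adjusted p = 0.0431). It passed the filter only through its 2D values, so a difference was built into its being tested. The count lower was 0 without scaling, with a filter of 5 TPM, with a pseudocount of 0.1 TPM and with the replicate block. Abca1, a cholesterol exporter, rose from 14.7 ± 1.47 to 20.2 ± 1.08 TPM (SD, n = 2 each), a log2 fold change of 0.39 (limma adjusted p = 0.0143), and Apoe, an apolipoprotein, from 2.28 ± 0.333 to 4.12 ± 0.0697 TPM (log2 fold change 0.62, limma adjusted p = 0.0112). Srebf1, the LXR target that drives fatty acid synthesis, was at 30.8 and 28.5 TPM in 2D and at 27.4 and 30.4 TPM in 3D (log2 fold change -0.080, limma adjusted p = 0.379). The list had no call with either 3D culture left out, and its call lower was also lost with either 2D culture left out.

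Among the 28 PPAR targets, 18 were tested, 8 were called lower, 2 higher and 8 not called, and the median log2 fold change was -0.21. The number called lower was 5 without scaling, 5 with a filter of 5 TPM and 5 without the intensity trend. Fabp3, a fatty acid binding protein of muscle and heart, rose from 11.2 ± 0.102 to 29.4 ± 0.568 TPM (SD, n = 2 each), a log2 fold change of 1.28 (limma adjusted p = 0.0027), and was still called with any culture left out (at most 0.0353). The mitochondrial dehydrogenase Acadm fell from 21.5 ± 0.833 to 16.5 ± 0.597 TPM (log2 fold change -0.41, limma adjusted p = 0.0084). Cpt1a, the entry step of mitochondrial fatty acid oxidation, was at 12.4 and 11.8 TPM in 2D and at 11.7 and 12.1 TPM in 3D, and the values overlapped. Pdk4 and Angptl4, among the most PPAR-responsive genes in other tissues, were at 0.0473, 0, 0 and 0 TPM and at 0 throughout. Fabp3 was the only call of this list with either 3D culture left out, and without 2D replicate 2 there were 4 calls lower.

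Of the 8 thyroid hormone receptor targets, 6 were tested, with 2 called higher, 2 lower and a median log2 fold change of 0.37. Klf9, a zinc finger factor that both thyroid hormone and glucocorticoids induce, rose from 30.3 ± 0.519 to 52.3 ± 0.207 TPM (SD, n = 2 each), a log2 fold change of 0.73 (limma adjusted p = 0.0036). The corepressor gene Hr rose from 1.09 ± 0.0346 to 2.59 ± 0.0880 TPM (log2 fold change 0.75, or 1.14 with a pseudocount of 0.1 TPM). Klf9 was called with any culture left out except 3D replicate 1 (adjusted p = 0.0525), and Hr was not called with either 3D culture left out (at most 0.0703). Without 2D replicate 2 the list had 1 call lower.

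The 15 glucocorticoid receptor targets were split. Of the 11 tested, 5 were called higher, 2 lower and 4 not called, with a median log2 fold change of 0.26. Beside Klf9, the metal-binding Mt1 rose from 80.6 ± 0.814 to 119 ± 0.430 TPM (SD, n = 2 each), a log2 fold change of 0.52, and the kinase inhibitor Errfi1 from 13.5 ± 0.0919 to 21.1 ± 0.555 TPM (log2 fold change 0.57). The other calls higher, named here after their values were seen, were the clock gene Per1, from 11.4 ± 0.865 to 18.4 ± 0.612 TPM (log2 fold change 0.61), and the phosphatase Dusp1, from 14.1 ± 0.400 to 18.1 ± 1.06 TPM (log2 fold change 0.30, limma adjusted p = 0.0309, lost at 0.0763 without 2D replicate 1). The 2 calls lower were Fkbp5 and Tsc22d3. Fkbp5, which holds the receptor in a state of low hormone affinity, fell from 39.3 ± 0.826 to 33.8 ± 0.518 TPM (log2 fold change -0.26, limma adjusted p = 0.0193), and Tsc22d3 (GILZ), an anti-inflammatory target, from 28.4 ± 0.709 to 22.1 ± 0.945 TPM (log2 fold change -0.39, limma adjusted p = 0.0121). Both were lower in each 3D culture than in either 2D culture. Without 3D replicate 1 no target was called, and without 3D replicate 2 there were 4 calls higher and none lower.

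Of the 7 vitamin D receptor targets, Calb1 alone could be tested. This calcium-binding protein fell from 28.6 ± 1.46 to 18.1 ± 1.74 TPM (SD, n = 2 each), a log2 fold change of -0.67 (limma adjusted p = 0.0051, 0.0580 without 3D replicate 1). It was lower in both 3D cultures, as was Vdr. Cyp24a1, the vitamin D-degrading enzyme that is the most responsive target in other cells, was listed at 0 in every sample.

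The enzymes and carriers that supply or remove ligands changed in both directions. Of 29 listed, 15 were tested, 6 called higher, 3 lower and 6 not called, and the median log2 fold change was 0.011. Hsd3b7, an enzyme of bile acid synthesis that also clears oxysterols, rose from 30.6 ± 0.827 to 55.5 ± 1.29 TPM (SD, n = 2 each), a log2 fold change of 0.80 (limma adjusted p = 0.0035), and kept its call with any culture left out (at most 0.0457). Hsd11b1, which regenerates active glucocorticoid from its inert form, rose from 5.44 ± 0.0252 to 9.93 ± 0.161 TPM (log2 fold change 0.73, limma adjusted p = 0.0045, 0.0595 without 3D replicate 1). Aldh1a1, which makes retinoic acid, fell from 4.94 ± 0.0680 to 2.45 ± 0.246 TPM (log2 fold change -0.82, limma adjusted p = 0.0062, 0.0569 without 3D replicate 1). Cyp27b1, which activates vitamin D and is named here after its values were seen, was at 0.604 and 0.502 TPM in 2D and at 1.69 and 1.62 TPM in 3D (log2 fold change 0.75, limma adjusted p = 0.0112, or 1.39 with a pseudocount of 0.1 TPM). It passed the filter only through its 3D values. Without 3D replicate 1 the list had 1 call, and without 3D replicate 2 it had 2 higher and 2 lower.

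Most of the chaperones that fold steroid receptors were called lower. Of 14 listed, 13 were tested, 10 were called lower (19.5% of all genes were), none higher and 3 not called, all 13 log2 fold changes were negative, and their median was -0.32. The HSP90 activator Ahsa1 fell from 90.7 ± 1.09 to 61.2 ± 0.431 TPM (SD, n = 2 each), a log2 fold change of -0.60 (limma adjusted p = 0.0041), and the cochaperone Ppid from 88.4 ± 7.15 to 64.2 ± 0.317 TPM (log2 fold change -0.50). Fkbp5 stands in this list as well. Without 3D replicate 1 the list had no call, and without 3D replicate 2 it had 2. Hspa8, a major chaperone of all cells, was listed at no more than 0.102 TPM and was not tested. Why it was so low was not examined. A listed value at or near 0 therefore does not by itself show that a gene is silent in these cells, here or in the other lists.

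**Figure D4:**
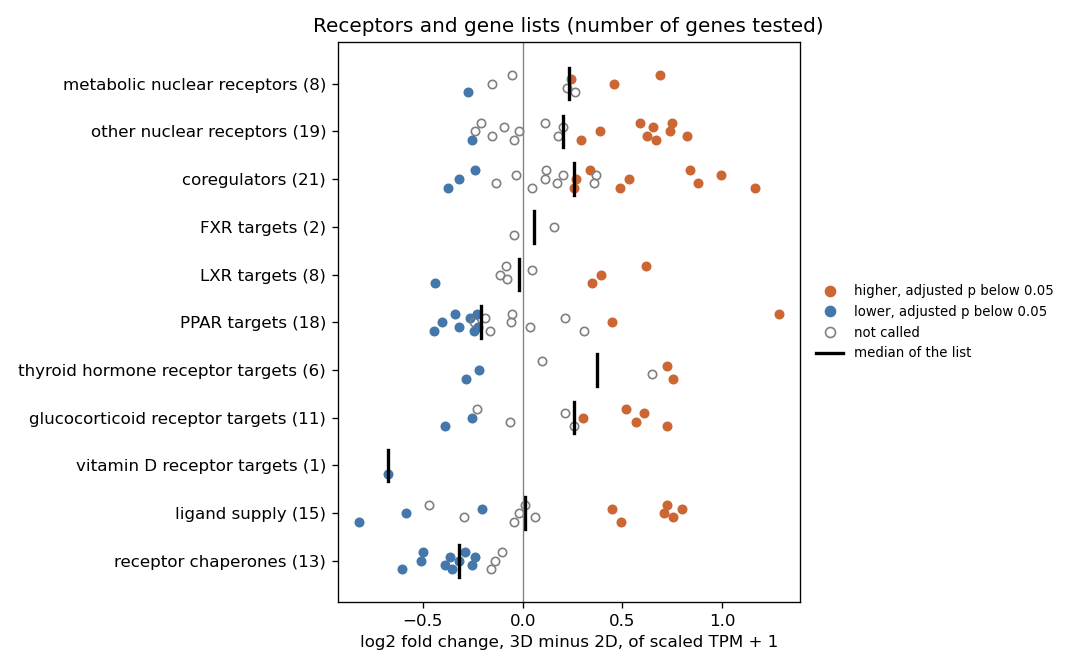
Log2 fold change, 3D minus 2D, of every tested receptor and list gene, with 1 point per gene, filled where the adjusted p was below 0.05 (orange higher, blue lower), and a bar at the median of each list. The 13 receptor chaperones all lie below 0 (median -0.32). Positive medians include those of thyroid hormone receptor targets (0.37), coregulators (0.26) and glucocorticoid receptor targets (0.26). The metabolic nuclear receptors (0.23) and other nuclear receptors (0.20) have positive medians too.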

How the data were processed

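RNA from 2 monolayer and 2 bioprinted cultures of INS-1 832/3 cells was analysed, grouped by the sample labels. Per the labels and methods, the libraries were stranded poly(A) libraries read as 75-base single ends, checked with FastQC 0.11.8 and quantified per transcript by the authors with Salmon 1.2 on rn4 transcripts plus the human insulin gene. The listed transcripts carry Ensembl identifiers that appear later than rn4, so the annotation behind them is uncertain. The deposited values are TPM with decimal commas, which the authors normalised for length and to 1000000 per sample. The 4 samples each summed to 1000000 over 31201 transcripts, of which 19355 to 19959 were above 0. The count-based DESeq2 test of the study needs counts and was not repeated.

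The TPM of all transcripts of a symbol were added up, which gave 23360 genes. Samples were scaled by unweighted TMM (trimming 30% of M and 5% of A on either side, factors 0.960 to 1.02) on genes with a mean of at least 1 TPM. The test was limma 3.58.1 in R 4.3.3 on log2(TPM + 1), using empirical Bayes and an intensity trend, with Benjamini-Hochberg adjustment over all 11960 genes tested. Printed TPM are unscaled. Ratios of paralogs were compared with exact permutation tests over samples. The steps were tested on simulated data. Same-numbered replicates did not deviate together (correlation -0.00601 over genes), so no block was used.

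The receptors and gene lists were chosen with earlier results of these data known. The genes named are the 10 receptors, 16 set genes of the lists and, of each list, the 3 tested genes with the smallest p (2 for lists under 15 genes). Some genes that meet this rule are not reported here. Nr1d1, Nr3c2, Esrra, Gcg, Smpdl3a, Cyp27b1, Per1, Dusp1 and Hspa8 are named beside it, after their values were seen. The symbols Arl4c, Mlxipl and Tnfsf11 of the lists were not matched, and Kat2b is listed as AABR07066180.1. The cell type markers G6pc2, Amy2a3, Pecam1 and Col1a2 were not matched either. Promoter windows are RefSeq's for GRCr8, matched by symbol.

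Alternatives were the scaling, filter, pseudocount, empirical Bayes options, threshold, replicate block, leading transcripts and leaving out each culture. The precision is that of 2 cultures per group.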

Additional observations from a re-analysis of the deposited data

How the results depend on the processing

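The tested receptors had the same direction under each other scaling, filter, pseudocount, empirical Bayes option and threshold tried, except that Nr1h4 was not tested with a filter of 5 TPM. The number of receptors called lower went from 1 to 0 without scaling. Calls lower in single lists fell without scaling too. They went from 8 to 5 for PPAR targets, from 3 to 1 for coregulators and from 2 to 0 for thyroid hormone receptor targets. Coregulators called higher went from 9 to 5 with no filter. At an adjusted p below 0.01 in limma, 1 receptor was called higher and 0 lower, with 1418 calls over all genes and 14 higher and 9 lower in the pathway lists. With each culture left out in turn, receptors called higher ran from 0 to 2 and lower from 0 to 1, calls over all genes from 136 to 4515, and list genes called higher from 2 to 32 and lower from 0 to 27. The low ends came without 3D replicate 1, where a lone 3D culture is assumed to vary like the 2D cultures. The log2 fold change of Nr1h2 ran from -0.14 to 0.025 with a culture left out and turned positive without 2D replicate 2, and that of Rxrb turned to -0.17 with the leading transcript alone. Among list genes, Thrb turned to 0.017 without scaling, 0.0016 with a filter of 5 TPM, 0.17 without 2D replicate 1 and 0.16 with the leading transcript, and Nr0b2 to 0.0080 without 2D replicate 2 and 0.081 without 3D replicate 1. Their lowest values with a culture left out were -0.22 and -0.16. The cause was not tested. The log2 ratio of Rxra to Rxrb differed by 0.43 between cultures with leading transcripts, and that of Ppara to Ppard by -0.87 with a pseudocount of 0.1. The latter could not be computed from leading transcripts, nor Nr1h3 to Nr1h2 without a pseudocount, because a sample was at 0. A fit with the replicate block called 4814 genes and changed no receptor call, and the numbers did not pair the samples. Of 280 recounts of single lists, 220 stayed within 1.5 times the count. TPM keeps no read counts per gene, and the paper gives only a read count per sample. The reliability of receptors below 1 TPM was not estimated.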
